A study of Arabidopsis thaliana with 12 samples.

Results

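Seedlings of the *Arabidopsis thaliana* mutant *gun1-102* with white cotyledons were compared with seedlings of the same mutant and age with green cotyledons. The labels name the cotyledon as the tissue, while the study's methods describe RNA from seedlings, and root markers were present in every library, so the values may stand for more than the cotyledon. *gun1-102* carries a T-DNA insertion in *GENOMES UNCOUPLED1* (*GUN1*) in the Col-0 background, and its seedlings differ in colour although they share the genotype. The libraries were chosen by the colour given in the labels: 3 labelled white cotyledon (*gun1W*) and 3 labelled green cotyledon (*gun1G*), 6 of the 12 libraries of the study. The other 6 were 3 of *gun1-102* with marbled cotyledons (*gun1M*) and 3 of the wild type Col-0. They helped to set the scaling, the choice of models tested and the estimate of the spread between libraries, but were not part of the difference tested. All seedlings were 4 days old and grew without inhibitors at 22 °C with a day of 16 h light and a night of 8 h, at 100 µmol photons m−2 s−1 and with 1% sucrose. The whole comparison rests on 1 allele, and colour is both the label of the groups and the visible phenotype, so a cause of the white colour and its consequences cannot be told apart. Where the replicates came from separate plantings is not given in the sources used here, so each p-value reflects only how far these libraries scatter, which may be technical.

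GUN1 is a pentatricopeptide repeat protein of the chloroplast that takes part in retrograde signaling, the reporting of the state of the plastid to the nucleus. Cotyledons of oilseed plants first live on stored oil, which the glyoxylate cycle turns into sugar, and become photosynthetic once proplastids have developed into chloroplasts. The chloroplast needs its own genome for this, which is read by 2 RNA polymerases: a plastid-encoded one (PEP), whose core subunits RpoA, RpoB, RpoC1 and RpoC2 are plastid genes, and a nuclear-encoded one (NEP), which reads the *rpoB* operon and other housekeeping genes. Nearly all other chloroplast proteins, among them the light-harvesting proteins (LHC), are encoded in the nucleus.

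Expression was measured as TPM, a share of all transcripts, summed over the transcripts of each gene model, after depletion of rRNA. TPM adds up to the same total in every library, so a large loss in 1 compartment raises all other values. Each library was therefore multiplied by 1 factor, chosen so that the nuclear genes have equal medians, and values below are scaled TPM unless stated otherwise. The factors were between 0.538 and 0.691 in *gun1W* and between 1.16 and 1.27 in *gun1G*. On the TPM as deposited, the median of all models outside the plastid was 0.80 higher in *gun1W* on the log2 scale. The read depth is unknown. Libraries of the same colour were correlated at 0.937 to 0.970 (*gun1W*) and 0.946 to 0.968 (*gun1G*) across genes, and libraries of different colour at 0.903 to 0.926. Genes are not independent replicates, so these values are a description.

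*GUN1* itself had 39.3, 33.3 and 25.7 scaled TPM in *gun1W*, against 20.4, 26.9 and 29.7 in *gun1G*. The groups overlapped (log2 fold change 0.34 ± 0.20 SE, adjusted p = 0.291, limma), and Col-0 averaged 45.5 ± 1.31 (SD, n = 3). A value summed over the whole gene cannot show where the insertion ends the transcript, so it does not check the genotype.

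Of 18373 gene models tested outside the plastid, 919 were called in *gun1W* against *gun1G*, at an adjusted p under 0.05 and at least a 2-fold change. They were 562 higher in *gun1W* (3.06%) and 357 lower (1.94%). All 3 *gun1W* libraries were above all 3 *gun1G* libraries for 16.9% of the models and below them for 16.6%. These shares are the background for the counts of gene groups given further on. On the TPM as deposited the split was 6175 higher (33.6%) and 79 lower (0.430%).

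The clearest difference was in the plastid. Plastid transcripts made up 9.29, 11.7 and 12.5% of all TPM in *gun1W*, against 41.5, 39.3 and 38.4% in *gun1G*. No *gun1W* library came near a *gun1G* library, and the exact permutation test gave p = 0.1, which is the smallest that 3 against 3 libraries can give. Of 97 plastid models, 68 (70.1%) were called lower in *gun1W* and 0 higher, with a median log2 fold change of −2.08 (−1.08 on the TPM as deposited). In bulk samples, fewer cells of a type, fewer plastids and less RNA in each cannot be told apart.

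**Figure D1:**
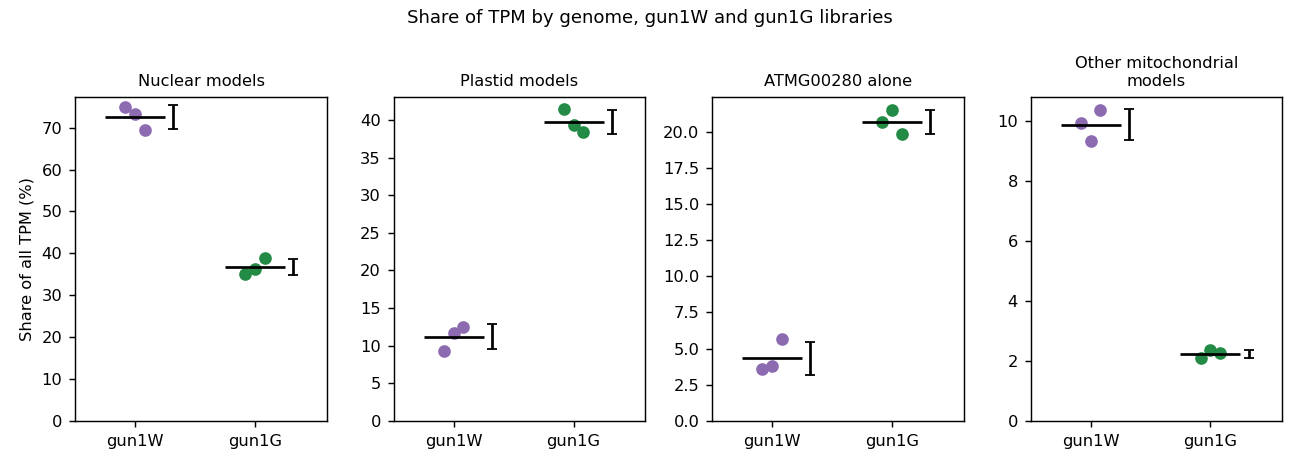
Share of all TPM (%) from nuclear models, plastid models, the single mitochondrial model ATMG00280 and all other mitochondrial models in the *gun1W* (left) and *gun1G* (right) libraries. Points are libraries, lines are means and bars are ± SD (n = 3 each). The panels have different axes, all from 0, and in each panel the groups do not overlap, with plastid shares of 9.29 to 12.5% in *gun1W* and 38.4 to 41.5% in *gun1G*.

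The largest decreases were in photosystem II and the NDH complex, a thylakoid complex of cyclic electron flow. *psbA*, which encodes the D1 protein of the photosystem II reaction center, had 6707, 7570 and 10078 scaled TPM in *gun1W*, against 155950, 130390 and 135010 in *gun1G*. It was the most abundant plastid mRNA named here, and it fell by 4.13 ± 0.26 (SE) on the log2 scale (adjusted p = 1.4e-08). *ndhJ*, an NDH subunit, had 268, 268 and 272 in *gun1W*, against 4504, 5180 and 4763 in *gun1G*, a decrease with little spread in either group (−4.15 ± 0.21, adjusted p = 2.24e-09). Its neighbours *ndhC* (−4.14) and *ndhK* (−3.92) moved by like amounts. These 3 genes lie next to each other and are read together, so reads can be split between them.

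The photosystem II genes were otherwise low as a group: 11 of 13 were called lower, with a median of −3.37. *psbC*, which encodes the CP43 antenna protein, had 602, 428 and 295 scaled TPM in *gun1W*, against 3818, 5384 and 5602 in *gun1G*. *psbF*, a subunit of cytochrome *b*559, had 13.3, 7.48 and 13.8 in *gun1W* and 261, 140 and 256 in *gun1G* (−4.12 ± 0.55, adjusted p = 1.41e-05). *psbL*, a small subunit from the same operon, was listed at 0 in *gun1W* replicate 1 and had 5.85 and 21.4 in the others, against 50.9, 78.4 and 117 in *gun1G*. Very short genes such as *psbF* and *psbL* are estimated poorly by TPM, and *psbE* of the same operon was far more abundant at 6389, 7168 and 6956 in *gun1W*, against 55823, 58772 and 56021 in *gun1G*. The 2 photosystem II genes that were not called were *psbI* (−0.98) and *psbN* (0.29).

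All 11 NDH genes were called lower (median −2.85), as were all 6 genes of the chloroplast ATP synthase (median −2.46). *atpB*, the catalytic beta subunit, had 574, 760 and 592 scaled TPM in *gun1W*, against 7135, 8474 and 8395 in *gun1G* (−3.64 ± 0.18, adjusted p = 2.24e-09). *rbcL*, the large subunit of Rubisco, had 2888, 3027 and 3535 in *gun1W*, against 29117, 27915 and 28801 in *gun1G* (−3.19 ± 0.21, adjusted p = 1.64e-08). Of 4 photosystem I genes 3 were called lower (median −2.43), and of 4 cytochrome *b6f* genes 3 (median −2.47). *psaJ* (−1.23 ± 0.80) and *petG* (−0.88 ± 0.77), the exceptions, had overlapping groups.

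The genes of the plastid's own gene expression changed less evenly. Of 22 ribosomal protein genes 14 were called lower (median −1.46), while *rpl33* (−0.57), *rps18* (−0.63) and *rps2* (−0.29) were not. Of the 4 polymerase genes only *rpoA* was called: it had 108, 157 and 77.9 scaled TPM in *gun1W*, against 491, 591 and 536 in *gun1G* (−2.28 ± 0.40, adjusted p = 0.00016). *rpoB* had 156, 217 and 128 in *gun1W*, against 115, 132 and 147 in *gun1G*. *rpoC1* had 307, 397 and 229 in *gun1W* and 264, 375 and 418 in *gun1G*. *rpoC2* had 45.8, 132 and 90.9 in *gun1W* and 55.5, 76.8 and 87.2 in *gun1G*. In these 3 genes of the *rpoB* operon the groups overlapped, with log2 fold changes of 0.31 ± 0.31, −0.19 ± 0.31 and 0.19 ± 0.41, and on the TPM as deposited 2 of the 4 polymerase genes were called higher. *rpoA* lies in another operon, among ribosomal protein genes.

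Other transcripts with small decreases were *accD*, a subunit of the acetyl-CoA carboxylase that starts fatty acid synthesis (−0.95 ± 0.28), *ycf2.1*, a part of the import motor of the inner envelope (−0.94 ± 0.27), and *clpP1*, the catalytic subunit of the Clp protease (−0.81 ± 0.16). Each passed the adjusted p but not the 2-fold minimum. *clpP1* had 3379, 3222 and 3093 scaled TPM in *gun1W*, against 4839, 5966 and 6255 in *gun1G*, so it was of like abundance to *rbcL* in *gun1W* and far below it in *gun1G*. Outside the joined models, the most positive values belonged to *rpl2.2* (0.40 ± 0.41), *trnK* (1.18 ± 2.06) and *trnS.1* (1.517 ± 1.299), all with errors as large as the value or nearly so. *trnK* was listed at 0 in 1 *gun1W* and 2 *gun1G* libraries and *trnS.1* in all *gun1G* libraries. *rpl2* and several tRNA and rRNA genes are present in 2 copies in the inverted repeat, and their reads cannot be assigned to 1 copy. The rRNA values follow depletion of rRNA and say little: *rrn16S.1* had 32.9, 31.6 and 6.48 in *gun1W* and 50.7, 130 and 595 in *gun1G*.

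**Figure D2:**
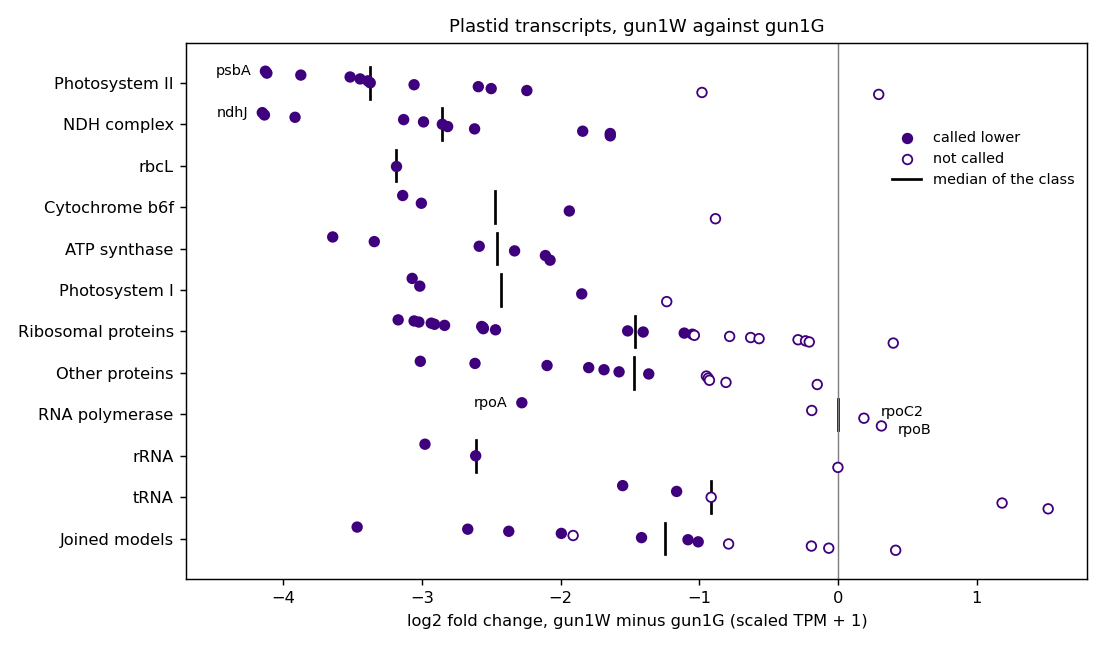
Log2 fold change of the 97 plastid models, *gun1W* minus *gun1G*, by the complex each serves. Filled points were called lower, open points were not called and black lines are medians. Photosystem II lies furthest to the left (median −3.37) and *rpoB*, *rpoC1* and *rpoC2* lie near 0.

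Relative to the protein-coding plastid transcripts as a whole, the same libraries showed which transcripts lost more and which lost less than their sum. With each library scaled to the same sum of these transcripts, 40 of 97 models (41.2%) were called: 37 higher in *gun1W* (38.1%) and 3 lower (3.09%). The 3 were *ndhJ* (−1.19 ± 0.11), *ndhC* (−1.18 ± 0.26) and *psbA* (−1.17 ± 0.15). Among those higher on this scale were *rpoB* (3.26 ± 0.34), *rpoC2* (3.12 ± 0.39), *rpoC1* (2.77 ± 0.37), *clpP1* (2.15 ± 0.15), *ycf2.1* (2.01 ± 0.18) and *accD* (2.00 ± 0.25). *psbA* makes up a large part of the sum, so the loss of 1 abundant transcript lifts the relative level of all others on this scale.

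PEP binds promoters that resemble those of bacteria. Such a pair of boxes is printed for *psbA*, the most abundant of the transcripts that fell, from the plastid genome of the TAIR10.1 RefSeq assembly, positions 1530 to 1559 on the minus strand, 85 bases before the coding start. Capitals mark both boxes.
psbA: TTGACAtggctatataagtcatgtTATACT
The pattern searched was TTGACN, a gap of 16 to 19 bases and TANNNT, on the sense strand in the 200 bases before the coding start. It was found for 4 of 78 protein-coding plastid genes, *psbA* among them. A match describes letters and no site of binding, and most transcripts that fell had none in this window.

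A nuclear model shared the *rbcL* pattern. AT2G07732, annotated as a Rubisco large-chain domain protein on chromosome 2 (3468160 to 3468899 in the RefSeq annotation), had 6122, 6141 and 6842 scaled TPM in *gun1W*, against 54662, 55818 and 58736 in *gun1G* (−3.15 ± 0.21, adjusted p = 9.85e-06). It was called lower, but its sequence is nearly that of organelle DNA: it matched the plastid genome at 96.9% identity over 573 of its 740 bases and the mitochondrial genome at 99.7% over all 740. The same 60 bases are printed from the 3 genomes (TAIR10.1, RefSeq), with the 2 positions at which the plastid copy differs in capitals. They are chr2:3468677-3468736 on the minus strand, 55500 to 55559 of the plastid genome and 164985 to 165044 of the mitochondrial genome, both on the plus strand.
AT2G07732: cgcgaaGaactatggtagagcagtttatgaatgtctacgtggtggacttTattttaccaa
plastid rbcL: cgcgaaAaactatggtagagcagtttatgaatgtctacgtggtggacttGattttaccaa
mitochondrial copy: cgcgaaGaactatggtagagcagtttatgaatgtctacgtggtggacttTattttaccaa
The nuclear and mitochondrial copies are the same in these 60 bases, so reads from this stretch cannot be told apart between them. The plastid copy differs more, and how reads were divided among the 3 copies was not examined. The value of AT2G07732 is therefore uncertain and cannot be read as nuclear expression. The mitochondrial model ATMG00280, whose sequence was not analysed here, had the same pattern with 24659, 22931 and 30334 in *gun1W*, against 241060, 261910 and 250550 in *gun1G* (−3.28 ± 0.28, adjusted p = 4.19e-05).

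Mitochondrial transcripts other than ATMG00280 took a larger share in *gun1W*. ATMG00280 alone took 3.57, 3.80 and 5.64% of all TPM in *gun1W*, against 20.7, 21.5 and 19.8% in *gun1G*. All other mitochondrial models together took 9.94, 9.36 and 10.4% in *gun1W*, against 2.098, 2.36 and 2.26% in *gun1G*, again with no overlap (exact permutation p = 0.1, the smallest possible). Of 83 mitochondrial models 46 were called higher and only ATMG00280 lower. The median was 1.16, and it stayed between 1.01 and 1.23 under the other scalings of the nuclear genes and the other settings, apart from 2.13 on the TPM as deposited. All 3 *gun1W* libraries were above all 3 *gun1G* libraries for 63 of the 83. ATMG01360, one of the abundant ones, averaged 2996 in *gun1W* and 954 in *gun1G* (log2 fold change 1.65).

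Nuclear models with organelle-like sequence had changes close to those of the mitochondrial ones. Of 140 nuclear models that resemble an organelle genome at 90% identity or more over 50% or more of their length (136 the mitochondrial and 7 the plastid one, some both), 69 were called higher and 1, AT2G07732, lower, with a median of 1.19. They make up 69 of the 562 calls higher in *gun1W*. Reads shared with the mitochondrion cannot be told apart from nuclear ones, so these models were kept out of the genes described below.

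Among the nuclear genes of photosynthesis, a part was called lower in *gun1W*. Of 21 LHC genes 5 were called lower and 0 higher, with a median of −0.79 (0.21 on the TPM as deposited). *LHCB1.2* (AT1G29910, *CAB3*), an antenna protein of photosystem II often used as a marker of retrograde signaling, had 571, 447 and 473 scaled TPM in *gun1W*, against 1157, 1335 and 1376 in *gun1G* (−1.38 ± 0.18, adjusted p = 0.000554). The groups did not overlap, and Col-0 averaged 1440. *LHCB2.3* showed the largest decrease of the family with 265, 147 and 135 in *gun1W*, against 485, 658 and 678 in *gun1G* (−1.78 ± 0.29, adjusted p = 0.00247). *LHCA4* of the photosystem I antenna had 1161, 857 and 962 in *gun1W* and 2468, 2467 and 2388 in *gun1G* (−1.31 ± 0.18, adjusted p = 0.000921). *LHCB3* had 915, 886 and 1089 in *gun1W*, against 2205, 1886 and 1842 in *gun1G* (−1.04 ± 0.19, adjusted p = 0.00485). It fell below the 2-fold minimum without *gun1W* replicate 2 (−0.98) and without *gun1G* replicate 1 (−0.96). The *LHCB1* genes are near-identical copies, so their single values are less certain than their sum.

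Of 23 nuclear photosystem subunits 10 were called lower and 0 higher (median −0.93, and 0.07 on the TPM as deposited), and every one of the 23 had a negative log2 fold change in the scaled values. *PSBQ-2*, an extrinsic protein of the oxygen-evolving complex, had 79.8, 81.3 and 114 scaled TPM in *gun1W*, against 373, 286 and 260 in *gun1G* (−1.73 ± 0.18, adjusted p = 0.000189). *PSBP-1* of the same complex had 254, 270 and 243 in *gun1W* and 780, 680 and 703 in *gun1G* (−1.49 ± 0.12, adjusted p = 2.83e-05). In photosystem I, *PSAO* had 281, 291 and 357 in *gun1W*, against 1036, 838 and 773 in *gun1G* (−1.50 ± 0.17, adjusted p = 0.000311). The stromal subunit gene *PSAE-1* had 770, 811 and 857 in *gun1W*, against 2117, 1938 and 1872 in *gun1G* (−1.28 ± 0.15, adjusted p = 0.000317). None of these 4 had overlapping groups.

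The electron transport list held 12 genes, of which 4 were called lower and 1 higher (median −0.75, and 0.24 on the TPM as deposited). *FNR2*, a ferredoxin-NADP+ reductase, had 31.9, 28.01 and 38.7 scaled TPM in *gun1W*, against 105, 84.2 and 87.6 in *gun1G* (−1.47 ± 0.19, adjusted p = 0.000614). *DRT112*, the major plastocyanin, had 656, 613 and 806 in *gun1W* and 1778, 1704 and 1771 in *gun1G* (−1.35 ± 0.19, adjusted p = 0.000966). The ATP synthase subunits *ATPC1* (−1.40) and *ATPD* (−1.16) were lower as well. The exception was the ferredoxin gene *FD1*, with 738, 538 and 288 in *gun1W*, against 102, 187 and 223 in *gun1G* (1.58 ± 0.42, adjusted p = 0.0281). Its call was lost without *gun1W* replicate 1 (adjusted p = 0.0871) or 2 (0.0900) and without *gun1G* replicate 1 (0.0941) or 2 (0.0595).

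Carbon fixation had few calls: 1 of 20 genes was called lower and 1 higher, and both encode the small subunit of Rubisco. The median was −0.44, and 0.56 on the TPM as deposited. For 11 of the 20 genes all *gun1W* libraries were below all *gun1G* libraries, against 16.6% of all models. For 3 of the 20 they were above, against 16.9%. *RBCS1A* had 13321, 13035 and 15828 scaled TPM in *gun1W*, against 26202, 33650 and 33289 in *gun1G* (−1.14 ± 0.20, adjusted p = 0.00433). *RBCS1B* had 160, 100 and 82.5 in *gun1W*, against 25.2, 33.0 and 63.4 in *gun1G* (1.52 ± 0.36, adjusted p = 0.0182), and lost its call without *gun1W* replicate 1 (adjusted p = 0.0588) and without *gun1G* replicate 1 (0.0624) or 2 (0.0648). The small-subunit genes are close copies of each other, and the abundant *RBCS1A* can take or give reads. In photorespiration, *SHM1*, the mitochondrial serine hydroxymethyltransferase, was the 1 gene of 13 called, with 130, 149 and 145 in *gun1W*, against 395, 330 and 313 in *gun1G* (−1.28 ± 0.15, adjusted p = 0.000331).

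Of 30 tetrapyrrole genes 2 were called lower and 1 higher (median −0.10, and 0.82 on the TPM as deposited). The 2 were the light-dependent protochlorophyllide oxidoreductases: *PORB* had 45.5, 21.1 and 22.1 scaled TPM in *gun1W*, against 92.0, 112 and 119 in *gun1G* (−1.91 ± 0.27, adjusted p = 0.00116). *POR C* had 10.2, 9.31 and 9.85 in *gun1W* and 25.4, 22.1 and 23.13 in *gun1G* (−1.18 ± 0.21, adjusted p = 0.0038). In Col-0 *PORB* averaged 106, near *gun1G*, and *POR C* averaged 7.89, nearer to *gun1W* than to *gun1G*. *HEMA2*, a glutamyl-tRNA reductase that is mainly known from roots, had 16.1, 12.8 and 9.55 in *gun1W*, against 5.30, 4.09 and 3.74 in *gun1G* (1.35 ± 0.18, adjusted p = 0.000814). Its green-tissue counterpart *HEMA1* overlapped between the groups (0.09 ± 0.20). Among 15 carotenoid genes *NCED4*, a carotenoid cleavage dioxygenase, was lower with 6.84, 7.17 and 5.50 in *gun1W*, against 18.5, 26.3 and 31.2 in *gun1G* (−1.79 ± 0.20, adjusted p = 0.000259). *BETA-OHASE 1*, a beta-carotene hydroxylase, was called higher (1.01 ± 0.21, adjusted p = 0.0093), and missed the 2-fold minimum without *gun1W* replicate 3 (0.84) or *gun1G* replicate 2 (0.90).

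The nuclear genes for the plastid's own ribosome and for transcription did not pass the test. Of 37 plastid ribosomal protein genes 0 were called in either direction (median −0.24, and 0.74 on the TPM as deposited), with log2 fold changes between −0.80 and 0.16. Of 22 genes for PEP-associated proteins, sigma factors and phage-type polymerases 0 were called (median 0.02, and 0.85 on the TPM as deposited), with log2 fold changes between −0.52 and 0.50. In the scaled values no member of either list reached a 2-fold change.

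Among the lists described here, the one with most calls higher in *gun1W* was that of heat shock genes. Heat shock proteins bind unfolding proteins, and their genes are switched on by heat shock factors (HSFs) in many stresses that damage proteins. Of 27 genes for heat shock proteins of the cytosol and mitochondria and for HSFs, 21 were called higher and 0 lower, with a median of 2.48 (3.24 on the TPM as deposited). All 27 had every *gun1W* library above every *gun1G* library, against a background of 16.9% for all models. A model was tested if 3 libraries of any group reached a TPM of 1. Members such as AT1G53540, with means of 0.600 in *gun1G* and 0.0676 in Col-0, could pass only through the white or marbled libraries. For such members the separation was partly set by the filter, so the count is only a description. Without *gun1W* replicate 2 the number called was 14, and without *gun1W* replicate 1 it was 23. The 2 members listed at 0 in all *gun1G* libraries were *HSP23.6-MITO*, with 1.57, 17.7 and 13.8 scaled TPM in *gun1W*, and AT5G37670, with 1.34, 5.63 and 3.98. No fold is given for them, and the call of *HSP23.6-MITO* was lost without *gun1W* replicate 2 (adjusted p = 0.0752) or 3 (0.0641) and without *gun1G* replicate 2 (0.0526) or 3 (0.0537).

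*HSP18.2*, a small heat shock protein of the cytosol, had the highest log2 fold change of any nuclear gene (4.82 ± 0.46, adjusted p = 7.68e-05). The 1 added before the log shrinks the change of low genes. By the ratio of means *HSP21* (198) and AT2G04050 (143) exceeded *HSP18.2* (54.1). *HSP18.2* had 44.2, 84.0 and 42.5 scaled TPM in *gun1W*, against 1.35, 1.597 and 0.205 in *gun1G*. AT1G53540, a protein of the same family, had 9.96, 44.6 and 22.7 in *gun1W* and 0.842, 0.646 and 0.312 in *gun1G* (3.85 ± 0.64, adjusted p = 0.00292). *HSP17.6II* had 6.94, 37.7 and 30.0 in *gun1W*, against 0.904, 0.116 and 1.45 in *gun1G* (3.61 ± 0.66, adjusted p = 0.00466). In all small heat shock genes named here but *HSP18.2*, *gun1W* replicate 1 was the lowest of the white libraries, yet it stayed above all green ones. AT5G51440, an HSP20-like chaperone, had 11.9, 41.6 and 42.1 in *gun1W*, against 0.584, 1.75 and 1.95 in *gun1G* (3.62 ± 0.60, adjusted p = 0.00274).

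The larger, ATP-driven chaperones were higher too. *Hsp70-2* had 59.3, 67.0 and 67.8 scaled TPM in *gun1W*, against 2.305, 3.68 and 3.41 in *gun1G* (4.01 ± 0.30, adjusted p = 1.94e-05). *HSP70* (AT3G12580) had 120, 157 and 117 in *gun1W*, against 5.73, 10.4 and 13.3 in *gun1G* (3.67 ± 0.49, adjusted p = 0.000747). Both encode cytosolic HSP70 proteins, which hold and refold client proteins, and close copies in this family and among the small heat shock genes can share reads. *HSA32*, which prolongs acquired heat tolerance, had 6.53, 9.95 and 9.27 in *gun1W*, against 0.735, 1.33 and 1.02 in *gun1G* (2.23 ± 0.28, adjusted p = 0.000462). Among the regulators *HSFA2*, an HSF that is itself induced by stress, had 3.77, 8.499 and 6.15 in *gun1W*, against 0.207, 0.104 and 0.472 in *gun1G* (2.46 ± 0.43, adjusted p = 0.00382). *gun1M* averaged 49.2 for *HSP18.2*, 27.7 for *Hsp70-2* and 78.1 for *HSP70*, and Col-0 averaged 0.875, 1.08 and 3.42.

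HSFs bind heat shock elements, repeats of GAA and TTC. The promoters of 2 genes of this list and of *HSP21*, the chloroplast protein described next and no member of it, are shown because they hold this element. They are the 250 bases before the annotated start (TAIR10.1, RefSeq), with matches to GAANNTTC or TTCNNGAA in capitals. AT1G53540 lies at chr1:19980049-19980298 on the plus strand, HSP17.4 at chr3:16984868-16985117 and HSP21 at chr4:13819972-13820221, both on the minus strand.
AT1G53540: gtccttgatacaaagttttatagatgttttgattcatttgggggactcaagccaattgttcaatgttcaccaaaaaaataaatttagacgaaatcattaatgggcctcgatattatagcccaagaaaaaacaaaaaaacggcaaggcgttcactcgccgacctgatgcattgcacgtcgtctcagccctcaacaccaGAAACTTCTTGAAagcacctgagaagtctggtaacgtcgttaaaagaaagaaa
HSP17.4: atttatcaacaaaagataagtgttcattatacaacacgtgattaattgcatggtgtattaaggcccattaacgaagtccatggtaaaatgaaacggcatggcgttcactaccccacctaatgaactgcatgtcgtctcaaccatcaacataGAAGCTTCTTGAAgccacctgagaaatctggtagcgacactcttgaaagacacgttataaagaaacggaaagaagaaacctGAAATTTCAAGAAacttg
HSP21: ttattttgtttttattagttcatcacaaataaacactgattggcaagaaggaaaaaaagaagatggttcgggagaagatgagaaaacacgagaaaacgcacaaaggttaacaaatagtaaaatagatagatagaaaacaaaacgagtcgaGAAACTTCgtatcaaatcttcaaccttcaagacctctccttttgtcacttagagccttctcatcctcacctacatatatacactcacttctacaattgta
The 3-unit form, GAANNTTCNNGAA or TTCNNGAANNTTC, was found before 5 of the 27 genes (18.5%), against 74 of all 17674 tested nuclear promoters (0.419%). The 2-unit form, which every 3-unit match contains, was found before 11 of the 27 (40.7%), against 15.8% of all promoters. Of the 483 nuclear models called higher, organelle-like ones included, 5 (1.04%) had the 3-unit form and 84 the 2-unit form. *HSP18.2*, *Hsp70-2* and *HSP70* had no match in their 250 bases. A match is a description of letters, and no match says nothing of the factor.

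Inside the chloroplast, few chaperones stood out. Of 19 chloroplast chaperone and protease genes 4 were called higher and 1 lower, with a median of 0.00 (0.95 on the TPM as deposited). *HSP21*, the small heat shock protein of the chloroplast, had 14.2, 28.3 and 18.1 scaled TPM in *gun1W*, against 0.123, 0.124 and 0.0603 in *gun1G* (4.21 ± 0.24, adjusted p = 4.23e-06). With a Col-0 mean of 0.0203, *HSP21* could pass the filter only through the white or marbled libraries. *Cpn60beta2*, a subunit of the chaperonin that folds Rubisco, had 89.9, 83.2 and 73.8 in *gun1W*, against 13.6, 14.2 and 16.9 in *gun1G* (2.39 ± 0.21, adjusted p = 4.29e-05). Its alpha partner *CPN60A* had 120, 130 and 152 in *gun1W* and 63.7, 62.4 and 66.4 in *gun1G* (1.05 ± 0.19, adjusted p = 0.00466), and fell below the 2-fold minimum without *gun1W* replicate 3 (0.95). The stromal HSP70 gene *cpHsc70-1* was also called (1.16 ± 0.23, adjusted p = 0.00832), with 0.9957 and no call without *gun1W* replicate 1. *PTAC4*, known as VIPP1 and needed for thylakoid membranes, was lower with 24.5, 18.8 and 21.5 in *gun1W*, against 45.5, 40.5 and 54.2 in *gun1G* (−1.08 ± 0.21, adjusted p = 0.00616), though it missed the 2-fold minimum without *gun1W* replicate 2 (−0.99) or *gun1G* replicate 3 (−0.97). In the endoplasmic reticulum 1 of 9 genes, the transcription factor gene *BZIP60*, was called higher with 36.1, 37.0 and 39.0 in *gun1W*, against 20.3, 12.6 and 15.3 in *gun1G* (1.19 ± 0.17, adjusted p = 0.00113), and the BiP chaperone genes overlapped between the groups.

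The early light-induced proteins (ELIPs) are relatives of the LHC proteins that bind pigment in thylakoids under light stress. *ELIP1* had 28.2, 70.9 and 77.11 scaled TPM in *gun1W*, against 0.999, 1.33 and 2.45 in *gun1G* (4.44 ± 0.50, adjusted p = 0.000287). *ELIP2* had 40.0, 116 and 123 in *gun1W*, against 3.58, 2.99 and 2.81 in *gun1G* (4.36 ± 0.48, adjusted p = 0.000243). In both, *gun1W* replicate 1 was lower than the other white libraries and more than 10 times the mean of the green ones. The other 4 members of the list were not called, and 1 of them, *OHP2*, had all white libraries below the green ones (−0.69 ± 0.13). *gun1M* averaged 22.1 for *ELIP1* and 36.4 for *ELIP2*, and Col-0 averaged 0.596 and 0.140.

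**Figure D3:**
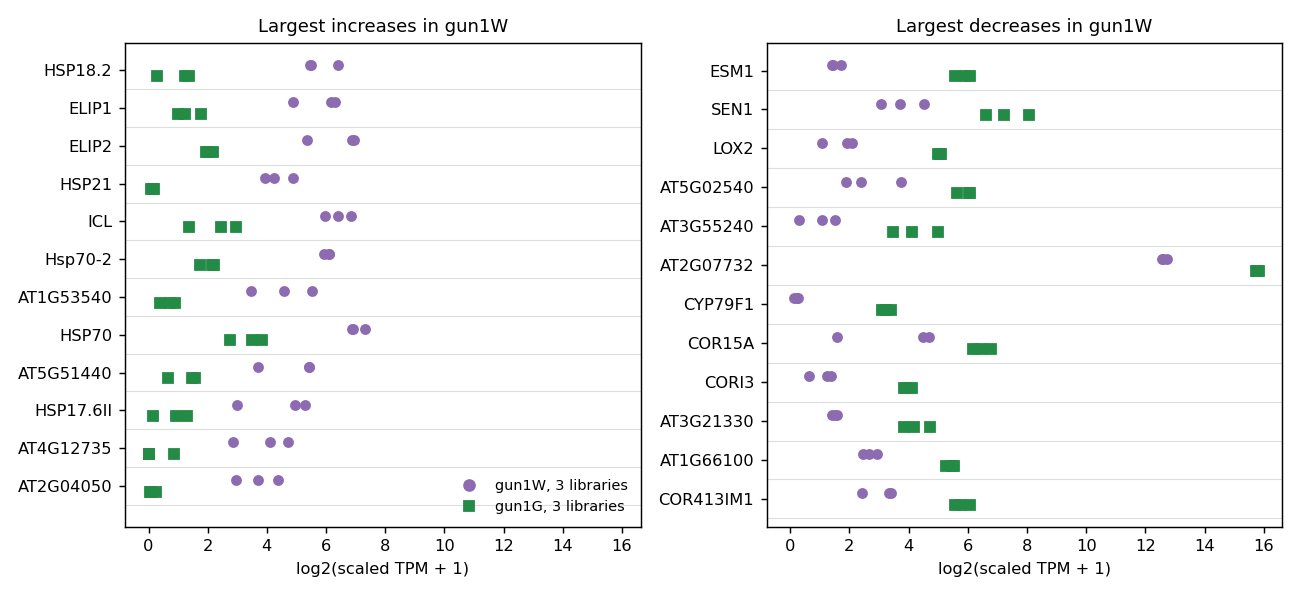
Values of the 12 nuclear models with the largest increases (left) and the 12 with the largest decreases (right) in the *gun1W* (purple circles) and *gun1G* (green squares) libraries, as log2(scaled TPM + 1). The 3 libraries of 1 group lie beyond the 3 of the other in every row, as the rule for naming them asks, and *COR15A* has 1 *gun1W* library (1.96 scaled TPM) far below the other 2. AT2G07732, among the decreases, has organelle-like sequence and cannot be read as nuclear expression.

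Genes for the removal of reactive oxygen were changed in part. Of 17 antioxidant genes 5 were called higher and 0 lower (median 0.19, and 1.16 on the TPM as deposited). *CSD2*, the copper/zinc superoxide dismutase of the chloroplast, had 71.4, 71.5 and 75.1 scaled TPM in *gun1W*, against 20.1, 21.5 and 19.1 in *gun1G* (1.795 ± 0.11, adjusted p = 5.65e-06). *CCS*, which delivers copper to it, had 12.5, 11.9 and 11.3 in *gun1W* and 4.93, 4.49 and 3.15 in *gun1G* (1.33 ± 0.19, adjusted p = 0.00102). *APX2*, a cytosolic ascorbate peroxidase that excess light and heat induce, had 3.07, 11.1 and 12.7 in *gun1W* and was listed at 0 in all *gun1G* libraries. With a Col-0 mean of 0.0124, *APX2* could pass the filter only through the white or marbled libraries. Its separation was partly set by the filter, so the count of 5 is only a description. *RHL41* (ZAT12), a zinc finger protein of oxidative stress, had 21.9, 51.2 and 37.6 in *gun1W*, against 7.38, 10.7 and 6.96 in *gun1G* (1.96 ± 0.36, adjusted p = 0.00482). The fifth, *APX1*, was called at 1.13 ± 0.26 (adjusted p = 0.0168). It lost the call without *gun1W* replicate 2 (adjusted p = 0.0534) or 3 (0.0599) and without *gun1G* replicate 2 (0.0643) or 3 (0.0597). The thylakoid peroxidase gene *TAPX* had a log2 fold change of −0.73 ± 0.12, with white libraries below green ones.

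Alternative respiration was among the processes with several calls. Plant mitochondria can pass electrons to oxygen by an alternative oxidase, whose gene *AOX1A* is induced when the mitochondrion is disturbed. Of 12 genes of alternative respiration and this response 6 were called higher and 0 lower (median 1.11, and 1.99 on the TPM as deposited). *AOX1A* had 18.0, 35.2 and 43.7 scaled TPM in *gun1W*, against 11.2, 5.85 and 7.44 in *gun1G* (1.82 ± 0.39, adjusted p = 0.0109). *NAC13*, a transcription factor that activates *AOX1A*, had 7.85, 14.3 and 11.8 in *gun1W* and 2.54, 1.36 and 2.03 in *gun1G* (2.03 ± 0.35, adjusted p = 0.00371). *SOT12*, a sulfotransferase, had 19.5, 32.3 and 57.2 in *gun1W*, against 8.71, 7.04 and 9.47 in *gun1G* (1.87 ± 0.40, adjusted p = 0.0107). AT2G21640 had 2.89, 6.30 and 14.8 in *gun1W*, against 0.316, 1.15 and 0 in *gun1G* (2.44 ± 0.46, adjusted p = 0.00559). With a Col-0 mean of 0.409, AT2G21640 could pass the filter only through the white or marbled libraries, so the count of 6 is only a description. The calls of *UGT74E2* (1.70) and *CYP81D8* (1.799) each held in 1 of the 6 fits that leave out a library, with adjusted p up to 0.122 without *gun1W* replicate 2 for *UGT74E2* and up to 0.121 without *gun1W* replicate 3 for *CYP81D8*.

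The use of stored oil differed at the glyoxylate cycle. *ICL*, isocitrate lyase, had 113, 82.9 and 61.8 scaled TPM in *gun1W*, against 1.602, 4.44 and 6.82 in *gun1G* (4.13 ± 0.49, adjusted p = 0.000344). *MLS*, malate synthase, the other enzyme found only in this cycle, had 11.5, 7.53 and 5.95 in *gun1W* and 2.22, 2.35 and 3.83 in *gun1G* (1.28 ± 0.27, adjusted p = 0.0111). They were the 2 called of 17 genes of oil mobilisation (median 0.37, and 1.305 on the TPM as deposited). *PCK1*, the next step toward sugar, overlapped between the groups (0.08 ± 0.16). *gun1M* averaged 16.4 for *ICL*, and Col-0 averaged 7.53. Of 6 seed storage and oil body genes 0 were called.

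Of 12 starch genes 4 were called lower and 0 higher (median −0.74, and 0.13 on the TPM as deposited). *GBSS1*, the granule-bound starch synthase that makes amylose, had 2.59, 4.15 and 5.40 scaled TPM in *gun1W*, against 15.8, 13.6 and 18.9 in *gun1G* (−1.79 ± 0.31, adjusted p = 0.00337). *APL3*, a subunit of ADP-glucose pyrophosphorylase, had 0.718, 0.662 and 0.738 in *gun1W* and 3.29, 3.50 and 3.66 in *gun1G* (−1.39 ± 0.15, adjusted p = 0.000243). Of the breakdown enzymes, *SEX1*, which phosphorylates starch, had 9.77, 8.72 and 6.18 in *gun1W*, against 23.02, 21.3 and 27.3 in *gun1G* (−1.44 ± 0.24, adjusted p = 0.00277). *DPE2*, which uses the maltose released, had 6.59, 7.38 and 5.08 in *gun1W*, against 15.1, 16.0 and 19.7 in *gun1G* (−1.29 ± 0.17, adjusted p = 0.000783). In Col-0 *GBSS1* averaged 3.56 and *APL3* 1.14, nearer to *gun1W* than to *gun1G*. *SEX1* averaged 14.6 and *DPE2* 12.9 in Col-0, between the means of the colours. *SEN1*, a gene induced by darkness and senescence, had 22.1, 11.9 and 7.44 in *gun1W*, against 269, 148 and 96.6 in *gun1G* (−3.53 ± 0.50, adjusted p = 0.00113), and was the 1 called of 17 genes of sugar starvation.

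The aliphatic glucosinolates are sulfur-rich defense compounds made from methionine, whose side chain is lengthened in the chloroplast. Of 20 genes for their synthesis and breakdown 14 were called lower and 0 higher, with a median of −1.59 that stayed below 0 on the TPM as deposited (−0.73). *MAM1*, which starts the chain lengthening, had 2.62, 3.73 and 4.21 scaled TPM in *gun1W*, against 21.3, 24.8 and 29.0 in *gun1G* (−2.53 ± 0.19, adjusted p = 1.94e-05). *CYP79F1*, the first step from the lengthened amino acid, had 0.0889, 0.182 and 0.194 in *gun1W* and 8.37, 7.53 and 9.55 in *gun1G* (−3.03 ± 0.25, adjusted p = 3.16e-05). *CYP83A1*, the step after it, had 1.21, 1.52 and 2.35 in *gun1W*, against 13.2, 14.96 and 20.7 in *gun1G* (−2.68 ± 0.24, adjusted p = 5.84e-05). Both MYB regulators in the list, *MYB28* (−1.47 ± 0.28) and *MYB29* (−1.78 ± 0.22), were called lower.

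On the breakdown side of the same list was *ESM1*, which directs glucosinolate breakdown toward isothiocyanates. It showed the lowest log2 fold change of any nuclear gene (−4.32 ± 0.15, adjusted p = 4.97e-08). It had 1.68, 1.74 and 2.27 scaled TPM in *gun1W*, against 46.1, 59.6 and 66.0 in *gun1G*. By the ratio of means, *gun1G* over *gun1W*, *CYP79F1* (54.8) exceeded *ESM1* (30.1). *TGG1*, the myrosinase that cleaves glucosinolates, had 91.5, 82.1 and 75.6 in *gun1W*, against 312, 264 and 263 in *gun1G* (−1.74 ± 0.14, adjusted p = 2.79e-05). The wild type was near *gun1G* for some of these genes and far below it for others. *ESM1* averaged 66.9 and *TGG1* 285 in Col-0, near *gun1G*. *CYP79F1* averaged 0.788, *CYP83A1* 2.84 and *MAM1* 6.70 in Col-0, below *gun1G* (8.49, 16.3 and 25.02).

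Genes of jasmonate and of cold showed large decreases in a few members only. *LOX2*, the chloroplast lipoxygenase that starts jasmonate synthesis, had 1.101, 3.30 and 2.79 scaled TPM in *gun1W*, against 32.6, 33.0 and 31.0 in *gun1G* (−3.35 ± 0.38, adjusted p = 0.000283). *CORI3*, a cystine lyase induced by coronatine, had 0.561, 1.59 and 1.36 in *gun1W* and 13.4, 16.3 and 14.3 in *gun1G* (−2.88 ± 0.38, adjusted p = 0.000634). With *AOC1* (−1.26 ± 0.25, adjusted p = 0.0072) they were the 3 called of 19 jasmonate genes, all lower. The median of the list was 0.12, and 1.05 on the TPM as deposited. In Col-0 *LOX2* averaged 4.09, *CORI3* 0.285 and *AOC1* 4.44, which is nearer to *gun1W* than to *gun1G*.

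Of 17 cold- and dehydration-regulated genes 3 were called lower and 1 higher (median −0.38, and 0.32 on the TPM as deposited). *COR413IM1*, a protein of the inner chloroplast envelope, had 4.32, 9.63 and 9.10 scaled TPM in *gun1W*, against 65.7, 53.1 and 46.5 in *gun1G* (−2.74 ± 0.32, adjusted p = 0.000323). *COR15A*, a stromal protein that protects membranes in frost, had 1.96, 21.3 and 25.1 in *gun1W*, against 87.0, 72.0 and 108 in *gun1G*, and 0.183 on average in Col-0. Its call (−2.89 ± 0.74, adjusted p = 0.0244) was lost without any 1 of the *gun1G* libraries, with adjusted p of 0.0571, 0.0559 and 0.0801. The call of *GolS3* (−1.82 ± 0.55, adjusted p = 0.0471) was lost in 5 of the 6 fits, and its adjusted p was highest without *gun1G* replicate 1 (0.145). *GolS1* went the other way, with 73.9, 139 and 131 in *gun1W*, against 9.67, 8.16 and 8.63 in *gun1G* (3.51 ± 0.32, adjusted p = 5.67e-05). It encodes a galactinol synthase that HSFs are known to induce.

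**Figure D4:**
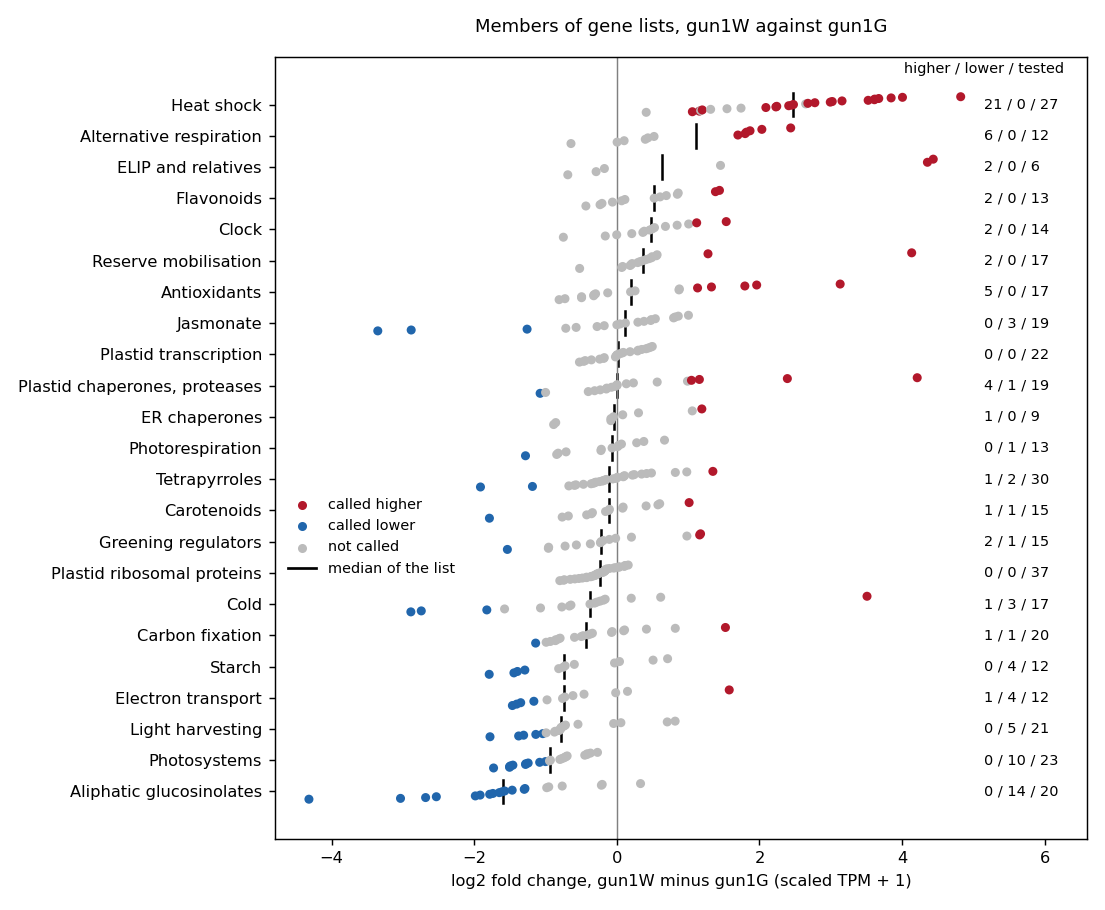
Log2 fold change, *gun1W* minus *gun1G*, of each tested member of 23 gene lists, ordered by the median of the list (black line). Red members were called higher, blue lower and grey not called, with the counts at the right: heat shock genes are at the top (21 of 27 higher) and aliphatic glucosinolate genes at the bottom (14 of 20 lower). On the TPM as deposited every median shown is above 0 except that of the glucosinolate genes (−0.73).

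Of 15 regulators of greening 2 were called higher and 1 lower, and the groups were separate for 7 (median −0.22, and 0.63 on the TPM as deposited). *PIF4*, a phytochrome-interacting factor that promotes elongation, had 8.21, 10.3 and 9.17 scaled TPM in *gun1W*, against 19.9, 29.1 and 40.0 in *gun1G* (−1.54 ± 0.23, adjusted p = 0.00135). *CGA1*, a GATA factor that promotes greening, had 5.75, 5.02 and 4.18 in *gun1W* and 2.70, 1.14 and 1.37 in *gun1G* (1.16 ± 0.23, adjusted p = 0.00768). *HYH*, a homolog of HY5, was called (1.17 ± 0.34, adjusted p = 0.0427) but in 0 of the 6 fits that leave out a library, with adjusted p between 0.0565 and 0.132 in them. The *GLK* factors, activators of photosynthesis genes, were not called: *GPRI1* (GLK1) had 32.4, 26.7 and 32.7 in *gun1W*, against 61.7, 48.8 and 72.3 in *gun1G* (−0.96 ± 0.21), and *GLK2* overlapped (−0.23 ± 0.27).

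Smaller groups had few calls. Of 13 flavonoid genes *UGT78D2*, a flavonoid glucosyltransferase, was higher with 17.3, 21.5 and 20.5 scaled TPM in *gun1W*, against 8.23, 6.22 and 5.66 in *gun1G* (1.44 ± 0.20, adjusted p = 0.0011). *DFR*, dihydroflavonol reductase of anthocyanin synthesis, was higher at low values (1.38 ± 0.21, adjusted p = 0.00149), and the other 11 were not called. *DFR* averaged 0.202 in *gun1G* and 0.133 in Col-0, so it could pass the filter only through the white or marbled libraries. Of 14 clock genes *RVE1* had 10.6, 12.4 and 12.1 in *gun1W*, against 3.18, 4.21 and 2.85 in *gun1G* (1.53 ± 0.17, adjusted p = 0.000303), and *PCL1* (LUX) was higher too (1.12 ± 0.18, adjusted p = 0.00216). Of 11 genes of nitrate and sulfate assimilation *NIA2*, a nitrate reductase, was called higher (1.18 ± 0.20, adjusted p = 0.00337), with 0.96 and no call without *gun1G* replicate 3. *GDH1*, glutamate dehydrogenase, was called lower (−1.02 ± 0.29, adjusted p = 0.0373). It lost the call without *gun1W* replicate 2 (adjusted p = 0.125) or 3 (0.1296) and without *gun1G* replicate 1 (0.0928) or 2 (0.1205). Of 5 salicylic acid and 10 iron genes 0 were called.

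Several of the strongest changes were in genes outside these lists. AT4G12735, an uncharacterized protein, had 6.23, 16.1 and 24.96 scaled TPM in *gun1W*, against 0.818, 0 and 0 in *gun1G* (3.59 ± 0.56, adjusted p = 0.002). AT2G04050, a MATE efflux protein, had 6.80, 11.9 and 19.7 in *gun1W*, against 0.0275, 0.188 and 0.0528 in *gun1G* (3.55 ± 0.33, adjusted p = 7.27e-05). Among the decreases were AT5G02540, a Rossmann-fold oxidoreductase, with 12.4, 2.68 and 4.23 in *gun1W*, against 64.3, 66.7 and 48.3 in *gun1G* (−3.24 ± 0.53, adjusted p = 0.0026). AT3G55240, of unknown function, had 1.84, 0.221 and 1.12 in *gun1W* and 10.2, 16.4 and 30.5 in *gun1G* (−3.24 ± 0.38, adjusted p = 0.000344). The bHLH gene AT3G21330 (−2.75 ± 0.21) and the thionin gene AT1G66100 (−2.74 ± 0.18) were lower with no overlap, and in Col-0 all 4 decreasing genes averaged above the *gun1G* level.

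Tissue markers were read to see what the samples held. Root markers were present in both colours although the labels name cotyledons: the summed level of 11 root genes was 1209 to 1500 scaled TPM in *gun1W* and 1087 to 1296 in *gun1G*, most of it the root and hypocotyl gene *BGLU23* (PYK10), and all 11 were detected in each group. Of 8 that were tested 0 were called. Of 9 shoot meristem markers the sum was 6.84 to 7.56 in *gun1W* and 7.44 to 9.47 in *gun1G*, with *WUS* and *CLV3* at 0 in all *gun1G* libraries and nearly so in *gun1W*. The 6 cell division genes summed to 8.71 to 12.3 in *gun1W* and 19.001 to 21.02 in *gun1G*, all 6 with white libraries below green ones but 0 called (median −0.67, and 0.09 on the TPM as deposited). The 7 stomatal genes summed to 21.1 to 24.2 in *gun1W* and 15.04 to 19.97 in *gun1G*, with 0 called. The white libraries were above the green ones for 2 of the 7 and below them for 1, *FAMA*. The part of differing cell types in the results was not tested.

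The share of a further transcript overlapped between the colours. AT3G06365 is annotated only as a miscellaneous RNA (chr3:14200215-14204208), and what RNA it is was not examined. It took 19.5, 15.1 and 4.02% of all TPM in *gun1W* and 0.219, 1.34 and 4.70% in *gun1G* (exact permutation p = 0.2). With this share as a covariate, 641 models were higher and 651 lower in *gun1W*, and 649 of the 919 calls (70.6%) were among them. Its part in the results was not tested otherwise.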

How the data were processed

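RNA of *gun1-102* with white or green cotyledons (tissue labelled cotyledon, seedlings in the study's methods) was sequenced after rRNA depletion with a stranded protocol. Per the study's methods and the submitters' processing notes, reads were trimmed with Trimmomatic and quantified with Salmon against the AtRTD3 transcriptome, and STAR, FastQC and TAIR10 are also named. Tool versions are not given in the sources used here. The authors deposited TPM values for 168507 transcripts, with no counts, so the depth is unknown. A second deposited table repeats the plastid values.

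TPM was summed to 40215 gene models. Libraries were scaled by the median log2 ratio of nuclear models to their mean over all 12 libraries. Then limma 3.58.1 (R 4.3.3) was fitted to log2(scaled TPM + 1) for all 12 libraries in 4 groups, with a mean-variance trend. A fold change on this scale understates the change of low genes. Models outside the plastid with TPM of at least 1 in 3 libraries were tested together. Plastid models above 0 in 3 libraries had a fit of their own under these factors, and another relative to the protein-coding plastid sum. P-values were adjusted by Benjamini-Hochberg, and a call needs an adjusted p under 0.05 and a 2-fold change. Shares were compared by two-sided exact permutation tests. Organelle-like models were found with BLAST 2.17.0, and the fits were tested on simulated data.

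Named were the 12 largest increases and decreases among called nuclear models with separate groups and a mean of at least 5 scaled TPM in 1 group, up to 4 called members per list, the 8 largest and 4 smallest plastid decreases, *GUN1*, *LHCB1.2* and the model with the largest share of TPM. Other genes, such as *HSFA2*, *CYP83A1*, *FD1*, *HEMA1* and *GPRI1*, were chosen after their values were seen. The comparison and all 32 lists were chosen with earlier results of these data known. *COR28*, *IMA1* and *IMA2* were left out of their lists. Other added values, filters, scalings, a replicate block, the *gun1W* and *gun1G* libraries alone and leaving out each library were tried. A result for 1 plastid gene is not reported here.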

Additional observations from a re-analysis of the deposited data

How the results depend on the processing

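The main limit is the unit. TPM keeps no depth, so no counting error can be given, and the direction of most lists depends on the scaling. On the TPM as deposited 6254 models were called, 6175 higher and 79 lower, against 919, 562 and 357 after scaling, and 4 plastid models were called higher, against 0. Adding 5 before the log left 416 calls (271 higher, 145 lower), and adding 0.1 gave 560 lower. With AT3G06365 in the model by its share, 651 were lower, and the log2 fold changes of *GUN1* and AT3G06365 turned to −0.13 and −1.001, the second being fitted on its own share. The cause of these changes was not tested. The difference in mitochondrial share (−8.67 percentage points) was −7.07 without AT3G06365 and 7.66 without ATMG00280, an alternative chosen after seeing the data. Leaving out 1 library gave 735 to 1049 calls (416 to 651 higher, 315 to 398 lower). For plastid models it gave 63 to 72 lower and 0 higher, and relative to the plastid sum 35 to 38 calls, of which 31 to 34 were higher and 3 to 5 lower. The shares then differed by −29.2 to −27.6 points (plastid), −9.57 to −8.14 (mitochondrial), 34.7 to 37.4 (nuclear) and 7.49 to 15.2 (AT3G06365). Deviations from the group means were correlated at −0.28, 0.02 and −0.18 between white and green libraries of the same replicate number. Between libraries of different number the values were −0.24 to 0.35. With 3 libraries per group this cannot show whether same-numbered libraries were grown or prepared together. With a replicate block 898 models, 67 plastid models and 38 relative to the plastid sum were called.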

Other observations

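Some neighbouring genes moved together. They were chosen after their values were seen, and no test was made of the grouping. Of 8 models for lipid-transfer proteins side by side on chromosome 4, AT4G22460 to AT4G22520, 6 were called lower in *gun1W*. AT4G22505 averaged 20.4 scaled TPM in *gun1W* and 107 in *gun1G* (log2 fold change −2.42), and AT4G22490 averaged 11.6 in *gun1W* and 65.6 in *gun1G* (−2.38). Close copies can share reads, so their single values are uncertain. In a run of glucosyltransferase genes on chromosome 2, all 3 tested were called higher: *UGT73C1* (2.37), *UGT73C6* (2.38) and *DOGT1* (3.43). *UGT73C1* and *UGT73C6* averaged 0.791 and 0.595 in *gun1G* and 0.126 and 0.0913 in Col-0. They could pass the filter only through the white or marbled libraries, so the count is only a description. *DOGT1*, which glucosylates brassinosteroids and a fungal toxin, averaged 41.5 in *gun1W* and 2.59 in *gun1G*. The efflux gene *DTX1*, next to AT2G04050, averaged 11.3 in *gun1W* and 0.524 in *gun1G* (3.03). In Col-0 *DTX1* averaged 0.344 and AT2G04050 0.201, so both could pass the filter only in the same way.

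Several genes of light, shade and auxin response were lower in *gun1W*, beside *PIF4*. *IAA29*, an auxin repressor, averaged 1.94 scaled TPM in *gun1W* and 14.6 in *gun1G* (−2.33). *XTH15*, a cell wall enzyme, averaged 14.04 in *gun1W* and 102 in *gun1G* (−2.68). The blue-light receptor gene *PHOT1* averaged 10.6 in *gun1W* and 39.8 in *gun1G* (−1.84). *HB-2* (−1.88), *PAR1* (−1.88), *PKS2* (−1.89) and *CIB1* (−2.11) were called lower too. These genes were also picked after their values were seen, so they say nothing of the response as a whole.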
